A study of Mus musculus with 4 samples.

Results

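Interferon-stimulated genes are the genes that cells switch on when they sense interferon, and a list of 44 of them was followed through a mouse bone marrow culture transduced with β-catenin. The list and its classes were chosen with earlier results of these data known. A member was read from probe sets that the platform annotation pairs with its symbol alone, and where it had several, from the one that was brightest on average on the log2 scale. By this rule 41 of the 44 had a value, among 18193 genes on the array, and 39 of them were above the detection floor on at least 1 array. Isg15 and Gbp4 matched only probe sets shared with another gene, Ifi44 matched none in the annotation used here, and these 3 have no intensity here; Isg15 and Ifi44 enter the promoter counts alone. Ifit3 and Mx2 were below the floor on all 4 arrays. By textbook knowledge the list was split into 35 type I effectors (31 above the floor), 7 guanylate-binding protein (GBP) and immunity-related GTPase genes (6 above it), and the 2 subunits of the peptide transporter Tap1 and Tap2.

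The study asked which genes lie downstream of β-catenin in the immortalization of blood stem cells. It started from the LSK fraction of mouse bone marrow, which lacks lineage markers, carries Sca-1 and c-kit and holds the blood stem cells and early progenitors. The 4 samples were LSK cells carrying a β-catenin retrovirus at day 3, LSK cells carrying a retrovirus for enhanced green fluorescent protein (eGFP) at day 3, and DKmix cells, which are the β-catenin-carrying LSK cells after 50 and after 300 days of culture. All were grown in serum with IL-3, IL-11, SCF and Flt3, and all carried a retrovirus, so no sample shows the interferon genes of untransduced cells. For strain, age, vector, promoter and the number of animals or clones, the sources used here gave nothing. The eGFP control was sampled at day 3 only, so time in culture and β-catenin cannot be told apart in the DKmix samples. Since a group was 1 array, replicate error is unknown, p-values could not be computed, and precision is limited by the small number of arrays.

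Type I interferons act on the receptor pair Ifnar1 and Ifnar2, and the Janus kinases Jak1 and Tyk2 then activate the factor ISGF3, which contains Stat2 and Irf9 and binds the interferon-stimulated response element in the promoters of its targets. Interferon-γ uses Ifngr1 and Ifngr2 and acts through the GAS element, and the GBP and immunity-related GTPases are classical targets of that arm, though many genes answer both. Haematopoietic stem cells respond to interferon, and stem and progenitor cells are known to keep some of these genes on without infection.

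The promoter letters of some members are given because the same element stood in both classes. The core of the response element was searched as GAAANNGAAA on both strands, where its reverse complement reads TTTCNNTTTC, in RefSeq windows of 300 bases (250 before to 50 after the start site, build GRCm38.p6). It was found in 18 of the 32 members with a window (56.2%), against 1079 of all 27025 genes with a window (3.99%). By class it stood in 14 of 26 type I effectors and in 4 of 5 GBP and GTPase genes. The palindrome TTCNNNGAA, the core of the GAS element, stood in 10 of 32 members (31.2%) and in 9.55% of all genes. By class the GAS core stood in 9 of 26 type I effectors (34.6%) and in 1 of 5 GBP and GTPase genes (20.0%). The 2 motifs can overlap. Shown 5′ to 3′ on the strand of the gene, with the capitals marking the response element core or its reverse complement, are 4 type I effectors and 3 GTPase genes. For Ifitm3, where the motifs lie just inside the transcript, only that site is printed.
Ifit1: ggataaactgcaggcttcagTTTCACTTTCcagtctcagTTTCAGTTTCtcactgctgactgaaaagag
Oas1a: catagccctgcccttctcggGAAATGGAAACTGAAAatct
Oas3: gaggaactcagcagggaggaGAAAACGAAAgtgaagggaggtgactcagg
Ifitm3: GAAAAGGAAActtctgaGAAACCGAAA
Gbp2: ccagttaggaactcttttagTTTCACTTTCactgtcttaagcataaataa
Igtp: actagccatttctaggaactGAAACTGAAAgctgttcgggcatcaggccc
Irgm1: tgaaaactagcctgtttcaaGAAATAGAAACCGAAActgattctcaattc
In GRCm38.p6 these lie at chr19:34640765-34640833 on the plus strand (Ifit1), chr5:120907526-120907565 on the minus strand (Oas1a), chr5:120777705-120777754 on the minus strand (Oas3), chr7:141010716-141010742 on the minus strand (Ifitm3), chr3:142620584-142620633 on the plus strand (Gbp2), chr11:58199502-58199551 on the plus strand (Igtp) and chr11:48871421-48871470 on the minus strand (Irgm1). Ifit1 holds 2 copies apart from each other, whereas in Oas1a and Irgm1 the 2 matches overlap and share a GAAA unit. A match is a description of these letters and not evidence that a factor bound there.

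Values are linear MAS5 signal intensities, which the authors had scaled so that the trimmed mean was 150 on every array. The floor was 48.3, the median of all values, and lower values were set to it before a ratio was taken, so a ratio with 1 array below the floor is a bound, written "at least". A member was counted as higher or lower at 2-fold or more. Error could be judged only from how far 2 probe sets of a gene disagreed. The SD of their difference was divided by the square root of 2 to give the SD of 1 probe set. This probe-set SD was 0.66 to 0.91 on the log2 scale depending on the comparison. A single ratio just past 2-fold (a log2 ratio of 1) is thus only slightly larger than it. The probe-set SD leaves out any difference between cultures. The ratio of the 3′ to the 5′ Gapdh control, which is high when RNA or cRNA is short, was 1.18 on β-catenin day 3, 4.14 with eGFP, then 4.96 at DKmix day 50 and 1.06 at DKmix day 300. The same control ratio of β-actin was 1.32 and 1.83 at day 3, then 3.41 and 1.20. DKmix day 300 over β-catenin day 3 thus compared 2 arrays with low control ratios; eGFP day 3 and DKmix day 50 were the 2 higher arrays on both controls, and DKmix day 50 was the higher of them. Of 10 genes that mark early progenitors, 9 were above the floor on β-catenin day 3 and 5 on eGFP day 3. Myb read 4149 and 2606.7 and Cd34 804.1 and 111.8 on the day 3 arrays, whereas Kit, one of the sorting markers, read 82.9 and 55.8 and Flt3 was below the floor on all 4; the Sca-1 gene Ly6a is not analysed here. Mast cell genes were bright on both DKmix arrays (a summed intensity of 184865 and 83135, against 4771 and 1138 at day 3).

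Most members were brightest on the β-catenin day 3 array, and fewer were above the floor in the long cultures than at day 3. All 39 were above the floor on β-catenin day 3, 36 were so with eGFP, 32 at DKmix day 50 and 29 at DKmix day 300, and 24 were above it on all 4. Over all 18193 genes the shares above the floor were 61.6%, 62.0%, 64.3% and 56.6%. These shares include genes below the floor on every array, whereas the 39 members were those above it on at least 1. The member counts and these shares thus do not have the same base and cannot be compared directly. The β-catenin day 3 array gave the highest value of the 4 for 24 of the 39 members, whereas it did so for 22.6% of all genes above the floor. DKmix day 50 gave the lowest value for 17 members (24.5% of all genes) and DKmix day 300 for 14 (28.9% of all genes). β-catenin day 3 gave the lowest value for 1 member, Ddx58 (23.0% of all genes).

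**Figure D1:**
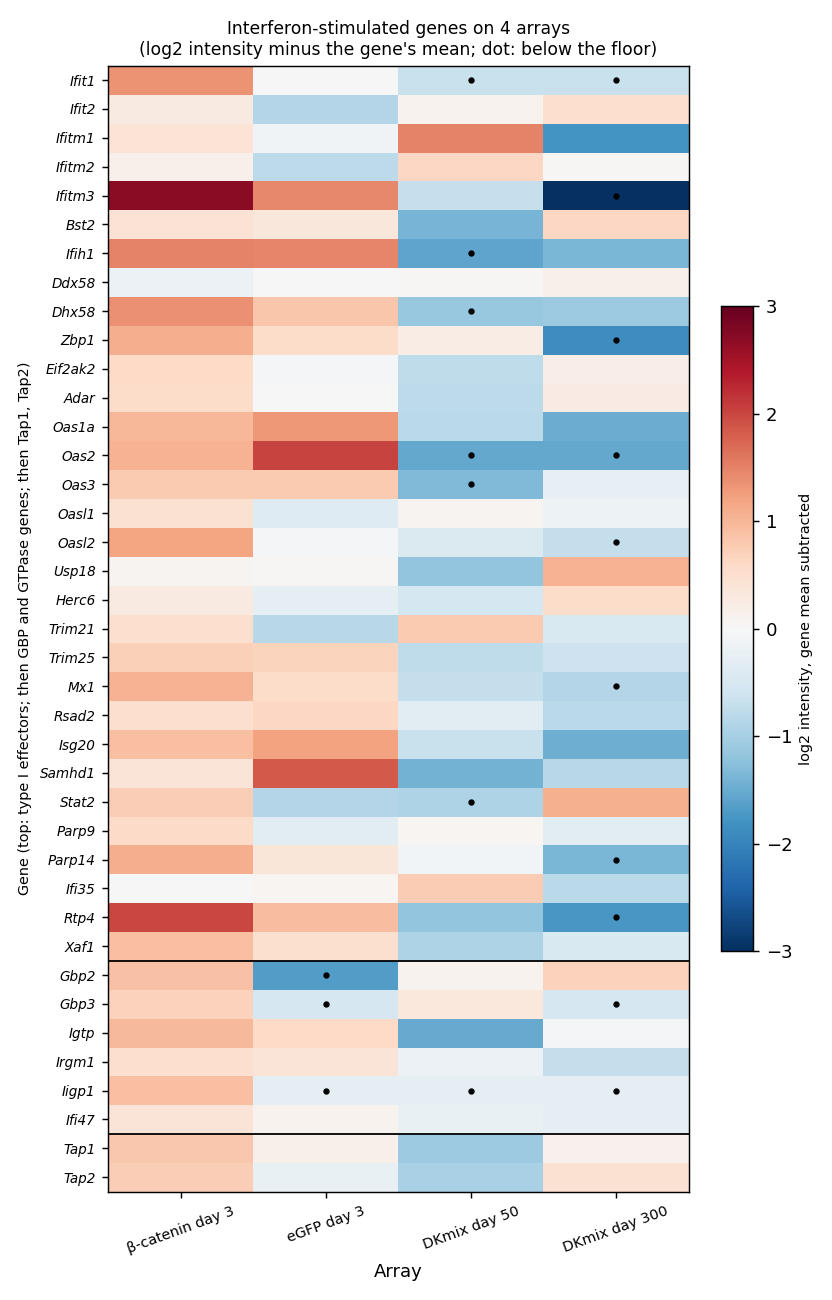
Each row is 1 of the 39 members above the floor and each column 1 array; colour is the log2 intensity minus the mean of that gene over the 4 arrays, and a dot marks a value below the floor of 48.3. The β-catenin day 3 column is the highest for 24 genes and holds no dot, and the dots on type I effectors lie in the 2 DKmix columns.

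Both DKmix arrays were at least 2-fold below both day 3 arrays for 11 of the 39 members (28.2%), against 2.68% of all 15292 genes above the floor. No member was 2-fold above both, against 2.78% of all genes. Counting differences of any size, both DKmix arrays were below both day 3 arrays for 21 members (53.8%; all genes 16.8%) and above them for 1, Ddx58 (all genes 15.5%), and for the other 17 the arrays overlapped or tied at the floor. The 11 were Ifitm3, Ifih1, Dhx58, Oas1a, Oas2, Oas3, Trim25, Mx1, Isg20, Samhd1 and Rtp4. All were type I effectors (11 of 31), against 0 of 6 GBP and GTPase genes. Of those 6, however, Gbp2, Gbp3 and Iigp1 were below the floor on eGFP day 3, so the count could not include them. The 2 classes are therefore not comparable by this count. In these bulk samples, fewer cells of a type and less RNA per cell cannot be told apart. With the eGFP day 3 and DKmix day 50 arrays left out, only the ratio of DKmix day 300 over β-catenin day 3 remained, a looser criterion. By it 22 members were lower (56.4%, all genes 14.4%) and none higher (all genes 14.0%). Of the 11, 7 had a single probe set, and the 4 with several, Dhx58, Rtp4, Samhd1 and Trim25, were all no longer counted when the probe sets of a gene were averaged.

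The IFIT proteins bind foreign RNA and block its translation. Ifit1 read 197.3 on β-catenin day 3, 77.1 with eGFP, 12.3 in DKmix cells of day 50 and 16.6 in those of day 300. Only the 2 day 3 arrays were above the floor, and β-catenin day 3 was at least 4.08-fold above either DKmix array. Ifit2 read 130.4, 58.8, 116.1 and 154.7 on the same arrays in that order, which is kept below. Its low value was that of the eGFP array, and both DKmix arrays were within 2-fold of β-catenin day 3.

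The IFITM proteins sit in endosomal and plasma membranes and hinder the entry of enveloped viruses, and the 3 members went separate ways. Ifitm3 read 3447.2 on β-catenin day 3, 1437.5 with eGFP, 326 in DKmix cells of day 50 and 11.6 in those of day 300. It was 10.6-fold lower at DKmix day 50 than on β-catenin day 3 and at least 71.4-fold lower at DKmix day 300, where it was below the floor. Ifitm1 read 10849, 7664.2, 22927.1 and 2352.7, highest on DKmix day 50 and lowest on DKmix day 300. Ifitm2 read 4276.8, 2229.2, 5914.4 and 3981.5, within 2-fold of β-catenin day 3 on both DKmix arrays. Bst2 encodes tetherin, which holds budding virions on the cell surface. It read 1765.4, 1667.8, 498.2 and 2027.6, low on DKmix day 50 alone.

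Among the sensors of viral nucleic acid, Ifih1 (MDA5, which reads long double-stranded RNA) and Dhx58 (LGP2, its partner) were low on both DKmix arrays. Ifih1 read 408.4 and 397.5 at day 3, then 6.1 in DKmix cells of day 50 and 56.2 in those of day 300. Its lower day 3 value was 7.07-fold above the higher DKmix value. Dhx58 read 275.5, 188.8, 5.1 and 49.8, a gap of 3.79-fold, although its next probe set, which was dim, was within 2-fold. Ddx58 (RIG-I, the sensor of short triphosphate RNA) read 212, 236.3, 247.1 and 268.2, with all arrays within 2-fold, so the 3 related helicases did not share a pattern. Zbp1, a sensor of Z-form nucleic acid, read 368.7, 254.7, 204.2 and 4.4 and was lost below the floor on DKmix day 300 alone. The kinase Eif2ak2 (PKR) read 266, 169.3, 103.2 and 202.7, and the RNA editing enzyme Adar read 372.4, 257.2, 148 and 303.3. For both, DKmix day 50 was more than 2-fold below β-catenin day 3 and DKmix day 300 was within 2-fold of it.

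The 2′-5′ oligoadenylate synthetases make the messenger that activates RNase L. Oas1a read 1090.2 on β-catenin day 3, 1334.5 with eGFP, 310 in DKmix cells of day 50 and 192.1 in those of day 300, and its lower day 3 value was 3.52-fold above its higher DKmix value. Oas1a belongs to a cluster of near-identical copies in the mouse, so its probes may also read a neighbour. Oas2 read 288.2, 575.7, 5.8 and 17.8, below the floor on both DKmix arrays. Oas3 read 209.7, 207.2, 29.2 and 102.7, a gap of 2.02-fold between the day 3 and the DKmix arrays. The 2 relatives that make no messenger or little of it were less uniform. Oasl2 read 182.7, 77.7, 59.2 and 3.3, and Oasl1 read 145.2, 81.9, 112.6 and 96.1, all within 2-fold.

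Another group works through the ubiquitin-like protein Isg15 or as ubiquitin ligases. Usp18, which removes Isg15 from proteins and dampens the interferon receptor, read 327.3, 314.4, 136.4 and 637.9. It was lowest on DKmix day 50 and highest on DKmix day 300. Herc6, the main ligase for Isg15 in mice, read 235.1, 162.5, 135.5 and 285. Trim25, a ligase that acts on RIG-I, was bright throughout at 2570.4, 2463.8, 917.5 and 1008.7, with a gap of 2.44-fold between the day 3 and the DKmix arrays. Trim21, a cytosolic antibody receptor, read 198.1, 79, 242.6 and 102.2, low on eGFP day 3 and on DKmix day 300.

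Of the antiviral enzymes, Mx1, a dynamin-like GTPase against influenza viruses, read 183.4, 129.4, 53.8 and 3.9. Isg20, an exonuclease, read 678, 838.1, 225.4 and 131.3, and Samhd1, which depletes nucleotides that reverse transcription needs, read 810.6, 2221.1, 232.7 and 346.1. In these 3 both DKmix arrays were below both day 3 arrays by 2.41-fold, 3.01-fold and 2.34-fold. Rsad2 (viperin) read 382.9, 413.8, 218.4 and 154, the same order by 1.75-fold.

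The signalling members and a few of other function were mixed. Stat2 read 153.6, 49.4, 43.2 and 190.9, so that β-catenin day 3 and DKmix day 300 were the high arrays of the probe set used. The next probe set of Stat2 read 32.9, 71.7, 71.7 and 110.4, with β-catenin day 3 lowest and below the floor. Parp14 read 265, 162.3, 118.1 and 12.9, and its partner Parp9 read 598.5, 322.8, 415.3 and 325.1. Rtp4, a Golgi chaperone that is strongly induced by type I interferon, read 647.9, 307.7, 71.7 and 44.4, with a gap of 4.29-fold between the day 3 and the DKmix arrays. Its next probe set read 114, 4.5, 118.4 and 13.2, however, and so did not set the day 3 arrays apart. Xaf1, which promotes apoptosis, read 398, 294.3, 112.3 and 153.1, while its next probe set read 26.5, 83.6, 103.7 and 54.8. Ifi35 read 2127.6, 2247.4, 3611.1 and 1224.7, highest on DKmix day 50, whereas its next probe set read 593, 561.1, 203.3 and 396.1, lowest there.

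**Figure D2:**
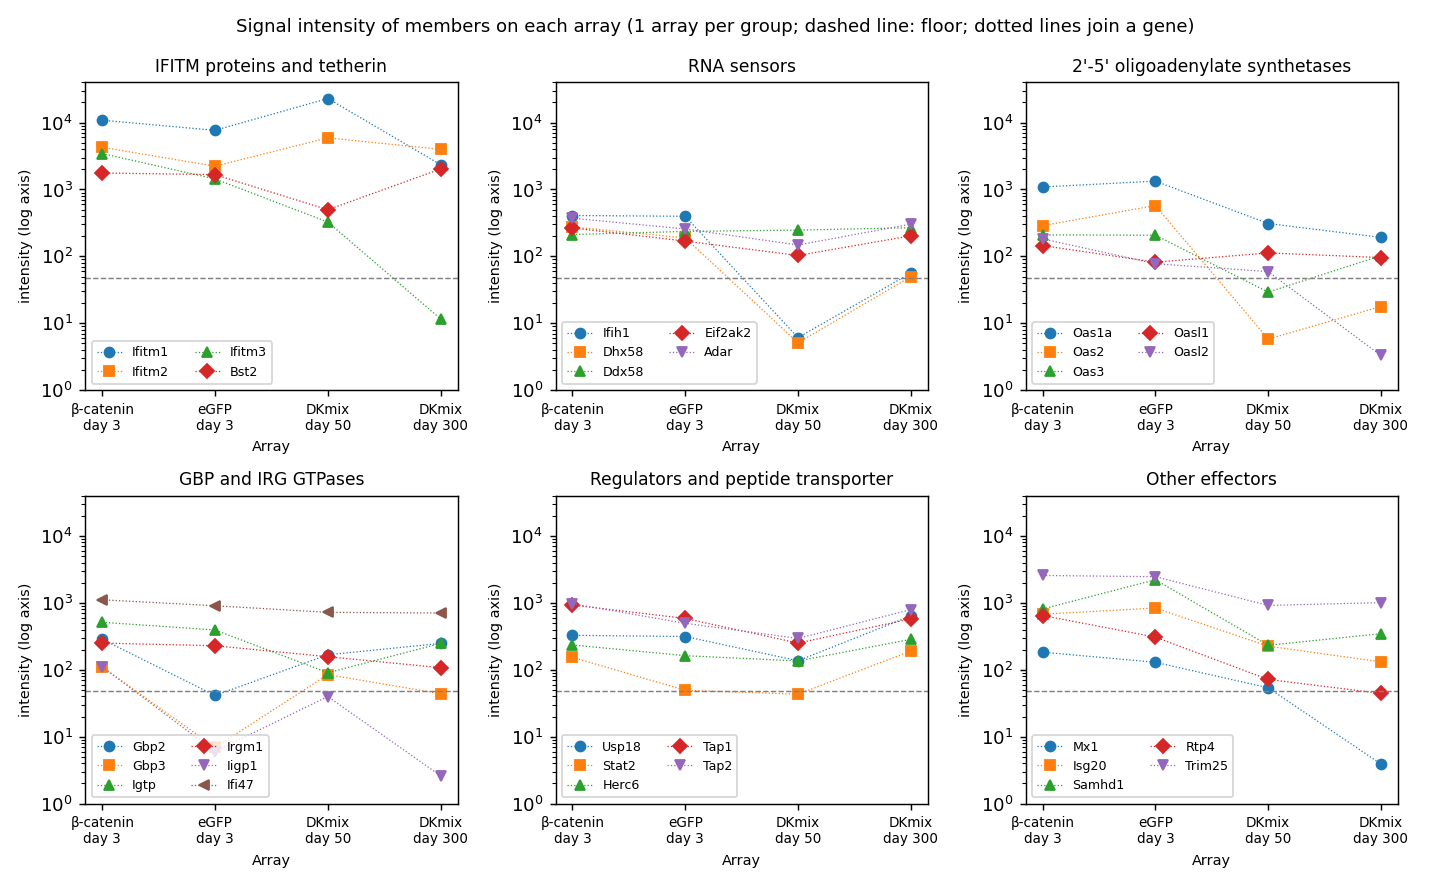
Points give the intensity of each named member (log axis) on the 4 arrays, 1 array per group, in 6 groups of function; the dashed line is the floor of 48.3 and dotted lines only join the points of a gene. Ifitm3, Ifih1, Oas2 and Mx1 lie lower on both DKmix arrays than on both day 3 arrays, whereas Usp18, Stat2, Tap1 and Tap2 are low at DKmix day 50 and high again at DKmix day 300. Stat2 is drawn from the probe set used, and its next one, not drawn, was lowest on β-catenin day 3.

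The GBP and immunity-related GTPases coat and break the membranes around intracellular pathogens. Gbp2 read 285.9 on β-catenin day 3, 41.3 with eGFP, 167.8 in DKmix cells of day 50 and 248.1 in those of day 300. Gbp3 read 110.1, 6.9, 84.7 and 43.9, and Iigp1 read 110.7, 6, 39.8 and 2.6. In all 3 the eGFP array was below the floor, and β-catenin day 3 was at least 5.92-fold, 2.28-fold and 2.29-fold above it. The probe set used for Gbp2 is of a kind whose probes can bind related transcripts. Its next probe set read 368.9 on β-catenin day 3, 3.2 with eGFP, 42.2 in DKmix cells of day 50 and 340 in those of day 300, which gives the same low and high arrays except that DKmix day 50 was below the floor. The other 3 members of the class did not have this pattern. Igtp (Irgm3) read 512.7, 393.7, 90.3 and 247.5 and was lowest on DKmix day 50. Irgm1, a regulator of the other GTPases, read 250.7, 228.8, 156.9 and 107.4. Ifi47 read 1112.7, 905.9, 722.4 and 705.3, all within 2-fold. No gene of this class was 2-fold lower on both DKmix arrays than on both day 3 arrays. For Gbp2, Gbp3 and Iigp1 that outcome was fixed in advance, because their eGFP value was below the floor.

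At day 3, members were more often above than below eGFP on the β-catenin array. Of 39 members, 10 were at least 2-fold higher (25.6%; all genes 10.2%) and 1, Samhd1, was lower (2.56%; all genes 9.42%). The members' median log2 ratio was 0.53, beside -0.01 for all genes measured. The 10 were 7 of 31 type I effectors (Ifit1 2.56-fold, Ifit2 2.22-fold, Ifitm3 2.40-fold, Oasl2 2.35-fold, Trim21 2.51-fold, Stat2 3.11-fold and Rtp4 2.11-fold) and 3 of 6 GTPase genes (Gbp2, Gbp3 and Iigp1). Samhd1 was 2.74-fold lower. With the floor at 134.6 instead of 48.3, 3 of 36 members were higher (8.33%), a share near that of all genes (7.89%). The class medians were 0.53 for the type I effectors and 0.78 for the GTPase genes, and this difference could not be tested with 1 array per group. The order of the medians rests on bounds for 3 of the 6 GTPase genes: over genes above the floor on both arrays the medians were 0.53 and 0.30. Markers of other cells differed between the same arrays. The summed intensity of 14 neutrophil genes was 13732 on β-catenin day 3 and 103942 on eGFP day 3, and that of 19 macrophage and dendritic genes was 28852 and 34973, within which the class II gene H2-Aa was 4.53-fold higher and Csf1r 5.90-fold lower with β-catenin. Of 9 progenitor genes measured, 5 were higher with β-catenin and none lower (median log2 ratio 1.30), with Cd34 at 7.19-fold, and of 11 mast cell genes 7 were higher and 2 lower, with Cpa3 at 11.6-fold. The part of these cells, and of the Gapdh control ratios of 1.18 and 4.14, in the result was not tested.

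At day 50 the DKmix culture was below β-catenin day 3 for most members. Of 39, 24 were at least 2-fold lower (61.5%; all genes 15.7%) and 1, Ifitm1 at 2.11-fold, was higher (2.56%; all genes 16.1%), with a median log2 ratio of -1.37 beside 0.07 for all genes. By class, 20 of 31 type I effectors were lower (median -1.49), 2 of 6 GTPase genes were (Igtp 5.68-fold and Iigp1 at least 2.29-fold; median -0.72), and so were both Tap1 (3.70-fold) and Tap2 (3.30-fold). Among the type I effectors above the floor on both arrays the widest ratios were Ifitm3 at 10.6-fold and Rtp4 at 9.04-fold. Bounds have no order, and Ifih1 was at least 8.46-fold, Oas2 at least 5.97-fold and Dhx58 at least 5.70-fold lower. The other 15 were Bst2, Eif2ak2, Adar, Oas1a, Oasl2, Usp18, Trim25, Mx1, Isg20, Samhd1, Parp14 and Xaf1, at 2.24-fold (Parp14) to 3.54-fold (Xaf1), and Ifit1, Oas3 and Stat2, by at least 4.08-fold, 4.34-fold and 3.18-fold.

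Against eGFP day 3, many members were also lower at day 50; the Gapdh control ratios of these arrays were 4.14 and 4.96 and those of β-actin 1.83 and 3.41. Of 38 members, 16 were lower (42.1%; all genes 15.0%) and 4 were higher (10.5%; all genes 15.6%), with a median log2 ratio of -0.73 beside 0.03 for all genes. The 4 higher ones were Ifitm1 (2.99-fold), Ifitm2 (2.65-fold), Trim21 (3.07-fold) and Gbp2 (at least 3.47-fold). Of the 16 lower ones, 14 were type I effectors of 31 (median -0.80), 1 was a GTPase gene of 5 (Igtp, 4.36-fold; median -0.33) and 1 was Tap1 (2.33-fold). Samhd1 was 9.54-fold lower, and the 4 type I effectors with bounds, Oas2, Ifih1, Oas3 and Dhx58, were at least 11.9-fold, 8.23-fold, 4.29-fold and 3.91-fold lower. The other type I effectors were Ifitm3, Bst2, Oas1a, Usp18, Trim25, Mx1, Isg20, Rtp4 and Xaf1, at 2.30-fold (Usp18) to 4.41-fold (Ifitm3). This comparison shares the day 50 array with the one before, and the ratios are given side by side and not as support for each other.

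At day 300, 22 of 39 members were at least 2-fold below β-catenin day 3 (56.4%; all genes 14.4%) and none was above it (all genes 14.0%), with a median log2 ratio of -1.19 beside -0.08 for all genes. By class, 18 of 31 type I effectors were lower (median -1.31) and 4 of 6 GTPase genes (Igtp at 2.07-fold, Irgm1 at 2.33-fold, Gbp3 at least 2.28-fold and Iigp1 at least 2.29-fold; median -1.12). Tap1 and Tap2 were within 2-fold. Of the type I effectors below the floor at day 300, Ifitm3 was at least 71.4-fold, Rtp4 at least 13.4-fold, Zbp1 at least 7.63-fold, Oas2 at least 5.97-fold and Parp14 at least 5.49-fold lower, and for Ifit1, Mx1 and Oasl2 the bounds were 4.08-fold, 3.80-fold and 3.78-fold. The other 10 were Ifih1, Ifitm1, Dhx58, Oas1a, Oas3, Trim25, Rsad2, Isg20, Samhd1 and Xaf1, at 2.04-fold (Oas3) to 7.27-fold (Ifih1). This comparison shares the β-catenin day 3 array with 2 of the others.

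Between the long cultures the members split. Of 36 measured, 9 were at least 2-fold higher at day 300 than at day 50 (all genes 15.1%) and 6 were lower (16.7%; all genes 15.9%, a share near the background), and the median log2 ratio was 0.00 beside -0.14 for all genes. The higher ones were Usp18 (4.68-fold), Bst2 (4.07-fold), Stat2 (at least 3.95-fold), Igtp (2.74-fold), Tap2 (2.70-fold), Tap1 (2.30-fold), Oas3 (at least 2.13-fold), Herc6 (2.10-fold) and Adar (2.05-fold). The lower ones were Ifitm1 (9.75-fold), Ifitm3 (at least 6.75-fold), Zbp1 (at least 4.23-fold), Ifi35 (2.95-fold), Parp14 (at least 2.45-fold) and Trim21 (2.37-fold). By class, 6 of 29 type I effectors were higher and 6 lower (median -0.16), and of 5 GTPase genes 1 was higher (median -0.03). The day 50 array had the highest Gapdh control ratio of the 4 and the day 300 array the lowest, and the part of this in the result was not tested.

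**Figure D3:**
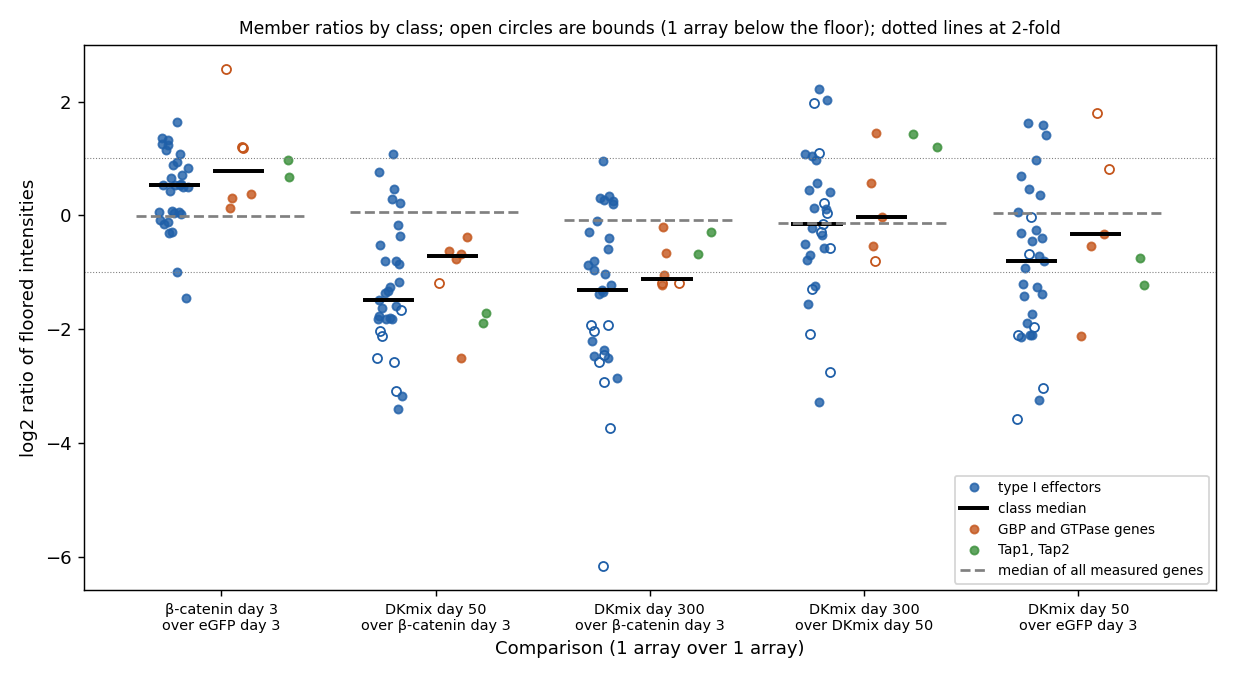
Each point is the log2 ratio of a member in 1 of 5 comparisons, type I effectors in blue, GBP and GTPase genes in orange and Tap1 and Tap2 in green, with black bars for class medians, a dashed grey line for the median of all genes and open circles for bounds. The class medians of DKmix day 50 over β-catenin day 3 are -1.49 and -0.72, and those of DKmix day 300 over β-catenin day 3 are -1.31 and -1.12. Comparisons that share an array are not independent of each other.

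Tap1 and Tap2 carry peptides into the endoplasmic reticulum for loading on class I molecules. Tap1 read 928.7, 585.5, 250.8 and 576.6, and Tap2 read 971.5, 495.2, 294.2 and 793.4. Both were lowest on DKmix day 50. Of 9 other genes of class I presentation with a value, 7 were above eGFP on the β-catenin day 3 array and none below (all genes 10.2% and 9.42%). At DKmix day 50, 6 of the 9 were below β-catenin day 3 (all genes 15.7%), at day 300 3 were (all genes 14.4%), and 3 of 8 were higher at day 300 than at day 50 (all genes 15.1%). Nlrc5, the activator of class I genes, read 292.9, 74.3, 7.5 and 5.6, on both DKmix arrays below the floor. The immunoproteasome subunit Psmb8 read 2639, 1087.9, 374.4 and 1641.7 and Psmb9 read 1351.4, 673.9, 220.4 and 1022.3, the same low array as Tap1 and Tap2. Psmb10, the other inducible subunit, read 1596.9, 704.2, 282.2 and 231.6 and was low on both DKmix arrays. H2-D1 read 7101.1, 2322, 4103.7 and 5451 and was 3.06-fold above eGFP on the β-catenin day 3 array, and H2-K1 read 15697.4, 5571.2, 4406.4 and 7530. The probe sets of these last genes can bind related class I transcripts.

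In the DKmix cultures the receptors for type I interferon stayed within 2-fold of β-catenin day 3. Those for interferon-γ were lower at day 50, and at day 300 Ifngr2 was still 3.11-fold lower while Ifngr1 was within 2-fold. Ifnar1 read 510.6, 288.9, 418.4 and 271.4, and Ifnar2 read 627, 466.3, 518.5 and 723.5. Ifngr2 read 572.9, 339.6, 36.2 and 184.2, below the floor on DKmix day 50, and Ifngr1 read 247.3, 315.7, 79.6 and 197.6. Irf9, the DNA-binding part of ISGF3, read 198.9, 160.2, 86.8 and 66.2, and Irf7, which amplifies the production of type I interferon, read 232.9, 155.1, 71.5 and 104.8. Both were lower on the 2 DKmix arrays than on the 2 day 3 arrays.

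Of 18 receptor and signalling genes, 1 was above and none below eGFP on the β-catenin day 3 array (5.56% above; all genes 10.2% and 9.42%). That gene was Socs1, an inhibitor of the Janus kinases, at 329.2, 51.5, 731.4 and 277.2. At DKmix day 50, 2 were above β-catenin day 3 and 6 below it (all genes 16.1% and 15.7%), and at day 300 none and 6 (all genes 14.0% and 14.4%). Ptpn6 (SHP-1), a phosphatase that restrains cytokine receptors, read 1960.5, 1272.1, 123.3 and 944.7. Irf8 read 220.3, 355.7, 46.4 and 73.5 and was lower on both DKmix arrays than on both day 3 arrays. Ptpn2, a phosphatase that acts on Janus kinases, read 912.7, 1187.2, 3780.4 and 503.3 and was highest on DKmix day 50, as Socs1 was. Of 12 genes that lead to interferon production, 10 to 12 were measured in a comparison and at most 2 passed 2-fold in either direction. Over all genes, 10.2% to 16.1% were higher and 9.42% to 15.9% lower. Ticam1 read 11.9, 75.7, 112.3 and 321.4, at least 2.33-fold above β-catenin day 3 at DKmix day 50 and at least 6.65-fold at day 300. Ikbke read 528.7, 366.1, 137.5 and 172, and Myd88 read 525.1, 1259.9, 855.2 and 454.4. Sting1, the adaptor of DNA sensing, read 433, 390.6, 350.4 and 59. Of the interferon genes, Ifnb1 and Ifng were read, with Ifnb1 at 51.3, 15.7, 13.3 and 58.9 and Ifng at 64.4, 5.5, 33.8 and 2.4. Ifnb1 was below the floor on eGFP day 3 and DKmix day 50, and Ifng on every array except β-catenin day 3. Their remaining values were only slightly above the floor. With values raised to the floor, no ratio of either gene reached 2-fold, so these readings show no clear difference between arrays.

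Markers of mature blood cells differed along with the members in the DKmix cultures. The summed intensity of 19 macrophage and dendritic genes was 28852 and 34973 at day 3, then 2682 at DKmix day 50 and 6340 at DKmix day 300, with 18, 16, 12 and 7 of the genes above the floor. Cx3cr1 made 1505.1 of the sum at day 50 and Cd68 5406.9 of that at day 300, both above their day 3 values, while 15 of the 19 genes were at least 2-fold below β-catenin day 3 at day 50 and 16 at day 300. For 14 neutrophil genes it was 13732, 103942, 832 and 266, with 11, 14, 4 and 1 above the floor. The defining macrophage gene Csf1r read 1999.5, 11797.6, 121.1 and 39.2, and the class II gene H2-Aa read 8396.5, 1852, 7.1 and 27.1. The summed lymphoid genes stayed at 205 to 540 on the 4 arrays. The part of these cells in the lower values of the members was not tested.

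Where a member had a second probe set above the floor, it mostly gave the same direction. Of members past 2-fold, the next probe set had the same sign in 5 of 6 at day 3, 8 of 11 for DKmix day 50 and 7 of 8 for DKmix day 300 over β-catenin day 3, 6 of 7 between the DKmix arrays, and 4 of 6 for DKmix day 50 over eGFP day 3. It was also past 2-fold in the same direction in 4, 4, 2, 1 and 1 of these. The opposite sign was given by Stat2 (at day 3 and at DKmix day 50), Rtp4 (at DKmix day 50), Xaf1 (in its 3 comparisons) and Ifi35 (between the DKmix arrays), so the values of these 4 depend on the probe set. Ifitm3, Ifih1, Oas1a, Oas2, Oas3, Mx1 and Isg20, among the 11 members low on both DKmix arrays, had no second one to compare.

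**Figure D4:**
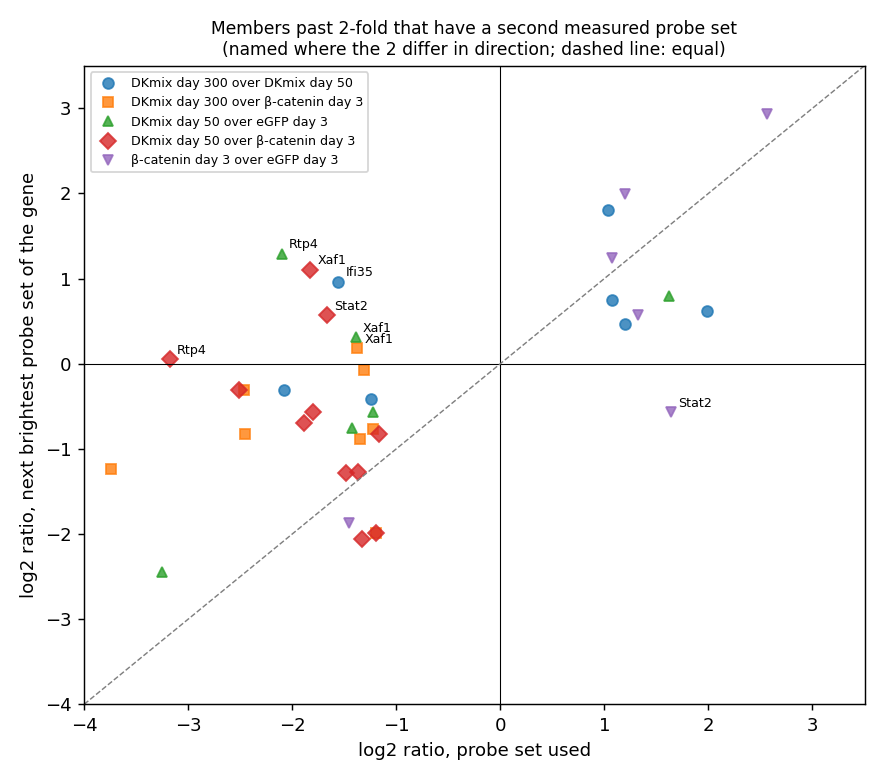
Each point sets the log2 ratio of the probe set used (horizontal) against that of the next brightest probe set of the same gene (vertical), for members past 2-fold in 1 of the 5 comparisons. Most points lie in the quadrants of equal sign (5 of 6, 8 of 11, 7 of 8, 6 of 7 and 4 of 6), the vertical ratios are often nearer to 0, and the named points differ in sign.

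The promoter motif was counted again for the members that were low in both long cultures. Of the 11, 7 had a promoter window and 4 of these held the response element core, namely Ifitm3, Ifih1, Oas1a and Oas3, against 12 of 22 other measured members with a window. The sequences printed above include Ifit1, which was below the floor on both DKmix arrays, and Gbp2, whose probe set used was within 2-fold of β-catenin day 3 on both, while its next one was below the floor on DKmix day 50.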

How the data were processed

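RNA of 4 samples, 1 per group, was measured on Affymetrix arrays. Per the submitters' processing notes, the authors used MAS5 to make the deposited linear intensities, and the file's trimmed means of 150 show that they had been scaled. Version, detection calls and genome build are not given in the sources used here. Annotation gave 1 symbol to 34958 of 45101 probe sets, several to 932 and none to 9211, and the 64 controls were left out. The 41 member symbols matched RefSeq by Entrez identifier.

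A gene's brightest probe set by mean log2 intensity was used; values were raised to the floor of 48.3 and compared as log2 ratios in 5 comparisons, with 2-fold as the threshold. With 1 array per group no test was made. The steps were tested on simulated data with 200 changed genes. Python 3.11.15, numpy 2.4.6, pandas 2.3.3 and scipy 1.17.1 were used.

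Members above the floor on at least 1 array were named with their values, and pathway genes where 2-fold apart, up to 4 a direction, with the receptors, Irf7 and Irf9 always. Jak1, Jak2 and Psme1 also passed 2-fold between the DKmix arrays, but their values are not given. Ifnb1 and Ifng, and the second probe sets of Gbp2, Rtp4, Xaf1, Stat2 and Ifi35, were added after their values were seen. The members, classes and lists were chosen with earlier results of these data known. Alternatives were quantile normalization, a scale set on the 9 hybridisation controls, floors at the 25th and 75th percentiles (11 and 134.6) and the mean of all probe sets; leaving out the 2 arrays with high control ratios was added after seeing the data.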

Additional observations from a re-analysis of the deposited data

How the results depend on the processing

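The count of members 2-fold lower on both DKmix arrays than on both day 3 arrays was 11 with quantile normalization (10 of the same genes). It was 12 with the lower floor, 16 on the hybridisation-control scale, 8 with the higher floor and 7 where probe sets were averaged. All 7 of these were members with a single probe set. The shares of all genes for these counts are not given here. Without the eGFP day 3 and DKmix day 50 arrays only the ratio of DKmix day 300 over β-catenin day 3 was left. By that looser criterion 22 members were lower (56.4%, all genes 14.4%), a number not comparable with the counts over 4 arrays. Scaling on the hybridisation controls put the median log2 ratio of all genes at 0.34 at day 3, -0.73 at DKmix day 50, -0.90 at DKmix day 300 (both over β-catenin day 3), -0.17 between the DKmix arrays and -0.41 for DKmix day 50 over eGFP day 3, against -0.01, 0.07, -0.08, -0.14 and 0.03. Of all calls, 75.7%, 11.1%, 8.46%, 46.0% and 21.6% were then higher, against 52.0%, 50.5%, 49.2%, 48.7% and 50.9%. Relative to all genes the members' medians were 0.59, -1.54, -1.18, 0.11 and -0.86 on that scale and 0.55, -1.43, -1.11, 0.14 and -0.77 in the values reported. On the control scale, 17 of 39 members were higher at day 3 (43.6%, all genes 21.4%) and 0 at DKmix day 50 (all genes 4.92%). The medians there were -2.27 (members) and -1.66 (GTPase genes) at DKmix day 50. At day 300 they were -2.07 (members), -2.36 (type I effectors) and -1.79 (GTPase genes).

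With the higher floor 3 of 36 members were higher at day 3 (8.33%, all genes 7.89%), a share near the background. At DKmix day 300, 14 of 37 were below β-catenin day 3 (37.8%, all genes 12.7%). Between the DKmix arrays 3 of 27 were lower (11.1%, all genes 12.7%). At DKmix day 50 over eGFP, 2 of 31 were higher (6.45%, all genes 13.2%). Quantile normalization gave 2 lower at day 3 (5.13%, all genes 9.91%) and 0 higher at DKmix day 50 (all genes 16.2%). Averaged probe sets gave 2 higher at DKmix day 50 (5.13%, all genes 13.7%) and 2 at day 300 (5.26%, all genes 13.2%). At day 3 the GTPase and type I medians were 0.34 and 0.44 with the higher floor, the reverse of their order; the lower floor moved the GTPase median to 1.59 at day 3 and turned it to 0.76 for DKmix day 50 over eGFP. Medians between the DKmix arrays, all near 0, changed sign: members to -0.068 (quantile), -0.064 (controls) and -0.095 (mean of probe sets), type I effectors to 0.0072 (lower floor) and 0.12 (higher floor), GTPase genes to 0.26 (higher floor). Averaging probe sets, the log2 ratio turned to 0.014 for Samhd1 and 0.071 for Xaf1 at DKmix day 50, 0.53 for Rsad2 at day 300 and 0.93 for Rtp4 at DKmix day 50 over eGFP. Of 93 single-member ratios past 2-fold, quantile normalization moved 0 beyond the probe-set SD, the control scale 28 and the lower floor 20; the higher floor moved 34 of 84, and averaging moved 16 and reversed 4 of 91. The causes were not tested. No paired analysis was possible because each group held 1 array.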
